A study of Mus musculus with 21 samples.

Results

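The Hox cluster genes of the table are the 39 rows whose symbol is Hox, a cluster letter from a to d and a position number, out of 24047 rows in all. There are 11 in the Hoxa cluster (chromosome 6), 10 in Hoxb (chromosome 11), 9 in Hoxc (chromosome 15) and 9 in Hoxd (chromosome 2). They were taken by name alone, with no measured value. RNA was sequenced from SMB21, a mouse cell line of medulloblastoma of the sonic hedgehog (SHH) type, in 7 groups of 3 libraries. In the drug experiment, cells were given quisinostat (JNJ), an inhibitor of histone deacetylases (HDACs), for 2 h or 24 h, or the solvent DMSO for 2 h or 24 h. In the hairpin experiment, cells received a virus that codes for a short hairpin RNA against luciferase (shLuc), Hdac1 (shHdac1) or Hdac2 (shHdac2), and puromycin selection. The labels used here give no dose of the drug. All groups are 1 cell line. The labels do not say whether replicates are separate cultures, and p-values here rest on a spread between libraries that may be technical only. The libraries were sequenced in 2 runs, and the labels do not say which library was in which run.

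Hox genes encode homeodomain transcription factors that give cells along the head-to-tail axis their regional identity. Within a cluster they stand in the order in which they act: low position numbers are used from the hindbrain downwards and high numbers in the trunk, limbs and tail. Where a cluster is not in use, polycomb proteins keep its chromatin closed with a repressive histone mark. The cerebellum, from whose granule cell progenitors SHH medulloblastoma arises, forms from the front of the hindbrain, a region that stays free of Hox expression.

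Promoter sequence is shown for Hox genes on which the results turn and for which a window without annotated exons was at hand. Hoxa13 and Hoxd10 rose at 24 h of JNJ. Hoxd8 had the most reads of all Hox genes and was not called at 24 h. The sequences are from RefSeq (GRCm38.p6) and end at the annotated start of the gene. They run 5′ to 3′ on the gene's strand, with each CG dinucleotide in capitals, since CG-dense promoters are the usual seat of polycomb repression.
Hoxa13, chr6:52260881-52261130, minus strand: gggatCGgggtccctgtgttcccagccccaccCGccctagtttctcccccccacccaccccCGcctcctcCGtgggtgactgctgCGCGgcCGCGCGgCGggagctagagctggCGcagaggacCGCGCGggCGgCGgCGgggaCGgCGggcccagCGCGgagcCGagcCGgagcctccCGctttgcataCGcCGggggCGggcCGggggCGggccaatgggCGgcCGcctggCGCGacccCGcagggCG
Hoxd10, chr2:74691641-74691890, plus strand: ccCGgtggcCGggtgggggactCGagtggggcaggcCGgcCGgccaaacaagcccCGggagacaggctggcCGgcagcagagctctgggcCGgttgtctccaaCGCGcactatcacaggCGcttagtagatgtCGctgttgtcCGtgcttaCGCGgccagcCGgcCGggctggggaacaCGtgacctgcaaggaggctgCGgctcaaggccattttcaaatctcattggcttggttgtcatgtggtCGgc
Hoxd8, chr2:74704365-74704614, plus strand: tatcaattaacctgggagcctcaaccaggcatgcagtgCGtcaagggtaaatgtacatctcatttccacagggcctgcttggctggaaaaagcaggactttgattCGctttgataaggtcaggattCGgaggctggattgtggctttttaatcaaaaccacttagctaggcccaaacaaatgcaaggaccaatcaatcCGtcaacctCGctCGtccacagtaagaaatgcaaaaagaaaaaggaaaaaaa
The 3 sequences hold 35, 20 and 6 CG dinucleotides.

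The number of CG dinucleotides varied widely among Hox promoters, both among genes that rose and among genes that were not called. Over windows that reach 50 bases past the start, 22 of the 39 Hox genes had a RefSeq entry, in 24 windows, with a median of 14.5 CG dinucleotides. All 32851 windows of the table had a median of 7. Hoxa7 and Hoxc4, which also rose at 24 h, had 9 CG dinucleotides each, and Hoxa9, which rose as well, had 4. Of the genes not called, Hoxd13 had 37 and Hoxd4 had 4. The homeodomain core TAAT was found on either strand in 19 of the 24 Hox windows (79.2%) and in 58% of all windows. TGATNNAT, the letters bound by Hox proteins together with Pbx, was in 4 (16.7%) against 8.85% of all. CACGTG, the E-box of Myc-type factors, was in 5 (20.8%) against 7.15%. The Gli motif GACCACCCA was in no Hox window and in 0.253% of all. A match describes these letters only.

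The libraries held 23094799 to 39341784 counted reads, of which 265 to 3553 fell on Hox genes. Levels are CPM, read counts relative to the library's reads, on totals scaled within each experiment, so levels of the drug and hairpin libraries stand side by side without a test. All 12 markers of SHH medulloblastoma and granule progenitors, among them Atoh1, Gli1 and Zic1, had counts in every group. Hdac1 fell in shHdac1 from 94.7 ± 5.86 CPM in shLuc to 30.6 ± 1.99 (mean ± SD, n = 3 each) and Hdac2 fell in shHdac2 from 318 ± 23.1 to 50.3 ± 3.08 (edgeR adjusted p = 0.000165 and 3.49e-06). Markers of blood and microglia summed to 3.42 CPM at most in any library and the 5 endothelial markers to 13.2 CPM, with Cldn5 alone at 0 in all. Markers of other cells reached higher sums: 204 CPM for fibroblasts or mesenchyme, 126 CPM for astroglia and 23.7 CPM for oligodendroglia.

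**Figure D1:**
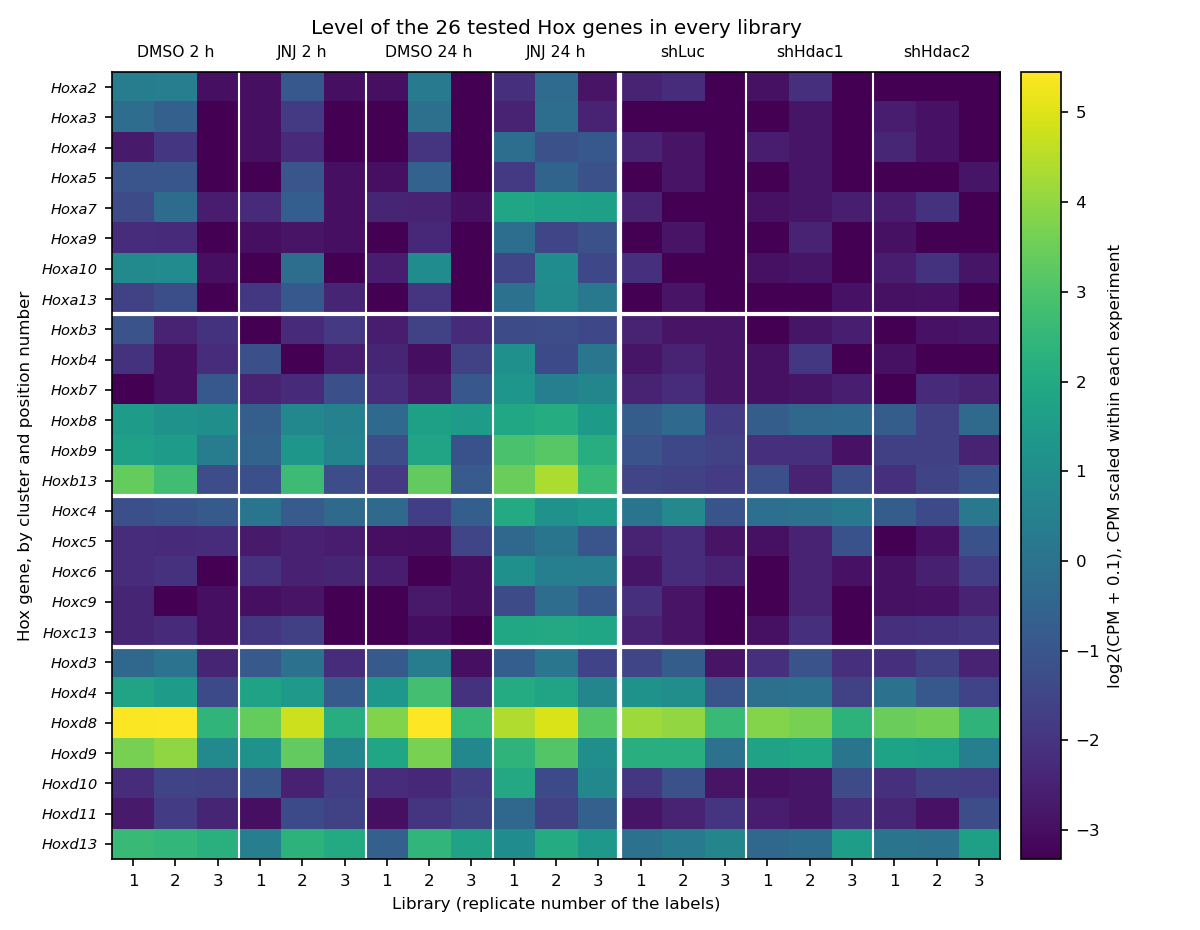
Level of each of the 26 Hox genes tested in the drug experiment (rows, by cluster and position number) in each of the 21 libraries (columns, by group and replicate number), as log2(CPM + 0.1). Hoxd8 is the brightest row throughout, Hoxc13 and Hoxa7 are bright in the 3 JNJ 24 h libraries only, and replicate 2 of the drug groups is brighter than replicate 3 in many rows.

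In DMSO-treated SMB21 cells most Hox genes were near silent, with Hoxd8 as the main exception. Hoxb1, a hindbrain segment gene, and Hoxc12 had no count in any library. Between 22 and 31 Hox genes had counts in a library of the DMSO and JNJ 2 h groups, and 18 to 26 in a hairpin library. The level of Hoxd8, a gene of the middle of its cluster, was 42.3, 43.6 and 5.27 CPM in DMSO 2 h replicates 1 to 3 and 13.6, 43.2 and 5.84 CPM in DMSO 24 h. Its neighbour Hoxd9 had 12.5, 15.7 and 1.73 CPM in DMSO 2 h and 3.48, 12.8 and 1.61 CPM in DMSO 24 h. Both genes were thus high in the same libraries and low in replicate 3.

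Per kilobase of exon, a level comparable between genes, the order in DMSO 2 h was Hoxd8 with 11.1 ± 7.93 CPM per kb (mean ± SD, n = 3 here and below), Hoxd9 with 4.68 ± 3.44, Hoxb13 with 2.60 ± 2.27 and Hoxd13 with 2.17 ± 0.285. The difference between each gene and the next was smaller than the larger of their SDs, which hold swings between libraries that the genes share. Within libraries, Hoxd8 was above Hoxd9 per kilobase in 21 of 21, and Hoxd9 was above Hoxb13 in 18 of 21, all but the 3 of JNJ 24 h. Hoxb13 was above Hoxd13 in 2 of the 3 DMSO 2 h libraries, so that step is not firm. Hoxb13 and Hoxd13 stand at the tail end of their clusters and are known from the prostate and tail and from the digits. The exon lengths are those of GENCODE M21, which need not be the annotation the authors counted on.

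Hox levels differed between libraries of the same group, and replicate 3 was low across much of the Hoxa and Hoxd clusters. Hoxd8, Hoxd9 and Hoxd4 were each lowest in replicate 3 in all 7 groups. The summed Hoxa level was 4.87, 5.46 and 0.115 CPM in DMSO 2 h, 0.448, 3.04 and 0.202 CPM in JNJ 2 h and 0.202, 5.02 and 0.0282 CPM in DMSO 24 h. Replicate 2 was thus high in all 3 groups, and replicate 1 was high in DMSO 2 h alone. Hoxa2, which sets the identity of the second pharyngeal arch, followed the same libraries, with 1.23, 1.25 and 0.0288 CPM in DMSO 2 h and 0.0288, 1.14 and 0 CPM in DMSO 24 h. Hoxb13 did too, with 10.2, 6.71 and 0.317 CPM in DMSO 2 h and 0.173, 10.02 and 0.48 CPM in DMSO 24 h.

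The same spread was counted over all genes. In DMSO 24 h the highest library was at least 4 times the lowest in all 7 Hox genes with a group mean of at least 1 CPM, and in 2.57% of all 12225 genes at that level. In DMSO 2 h it was 5 of 8 Hox genes against 2.98%, and in JNJ 2 h 6 of 7 against 4.6%. In JNJ 24 h it was 3 of 15 against 1.94%. In shLuc, shHdac1 and shHdac2 it was 3 of 5, 1 of 3 and 0 of 3 Hox genes, against 3.55%, 1.3% and 1.04%. The labels give no reason for these differences, and in bulk RNA fewer cells that express a gene and less RNA per cell cannot be told apart.

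**Figure D2:**
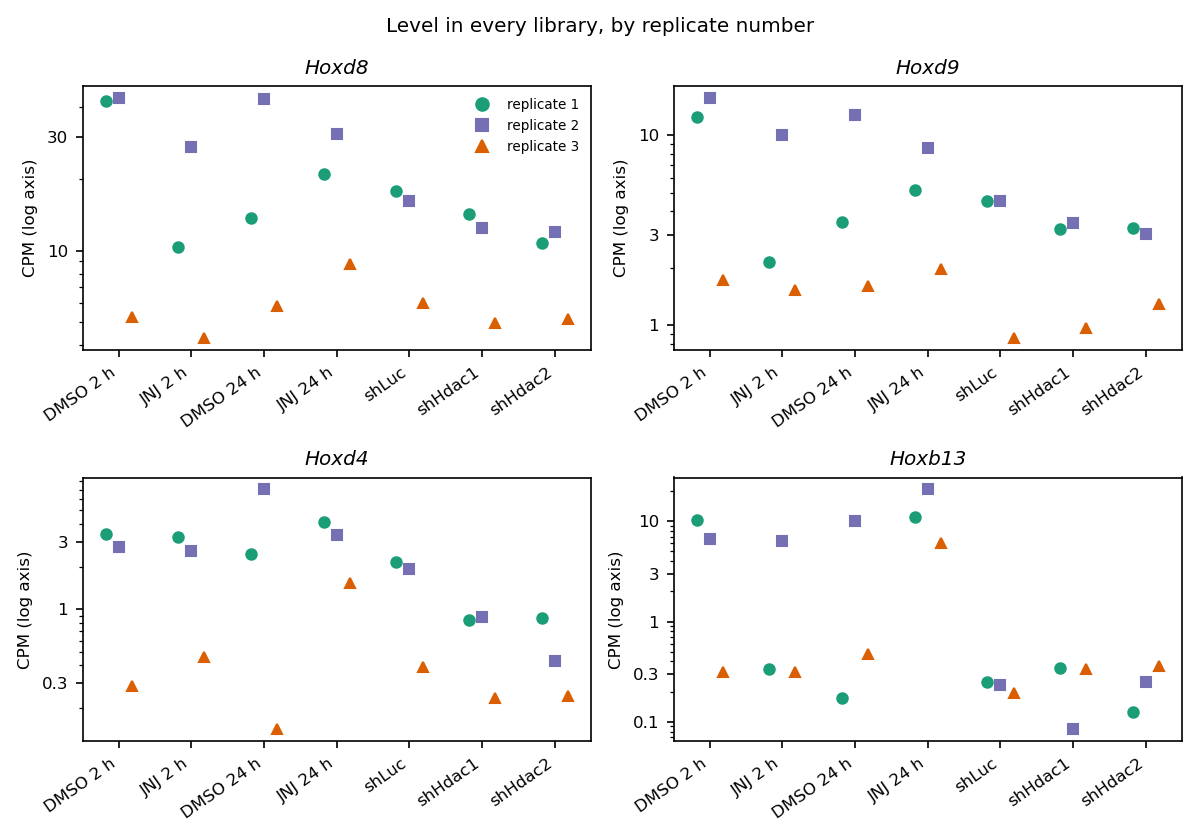
Level of Hoxd8, Hoxd9, Hoxd4 and Hoxb13 (CPM, log axis) in every library, by group, with 1 symbol per replicate number. Replicate 3 is the lowest point of every group for the 3 Hoxd genes, while Hoxb13 lies between 6.03 and 20.7 CPM in all 3 JNJ 24 h libraries and splits into high and low libraries in the other drug groups.

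At 2 h of JNJ no Hox gene passed the test. Of the 39 genes, 26 had enough counts to be tested in the drug experiment, and 0 of them were called by edgeR's quasi-likelihood test at an adjusted p under 0.05, where 13.7% of all 14467 tested genes were called and 9.11% were higher. None had an unadjusted p under 0.05, and DESeq2 called 0 as well. The median log2 change of the 26 was -0.76, against 0.03 over all genes. Hoxd8 had 10.4, 27.2 and 4.30 CPM in JNJ 2 h (log2 change -1.12, SE 0.85, adjusted p = 0.411), within the range of the DMSO 2 h libraries except for replicate 3. Hoxb8, which drives growth of myeloid progenitors when overexpressed, had 0.532, 1.61 and 1.36 CPM against 2.76, 2.12 and 1.96 in DMSO 2 h, with no overlap (log2 change -0.97, SE 0.54, adjusted p = 0.252). The groups did not overlap for Hoxc5, which was lower (-0.83, SE 0.85), and for Hoxc4, which was higher (0.86, SE 0.50). Overlap was not counted over all genes. Changes at this time lay between -2.69 (Hoxa3) and 0.86 (Hoxc4) on the log2 scale. The spread between libraries described above limits what could be detected here.

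At 24 h of JNJ, Hox genes of all 4 clusters rose and none fell. The test called 13 of the 26 higher and 0 lower, where 18.1% of all tested genes were higher and 33.1% were called either way. They were Hoxa4, Hoxa7, Hoxa9 and Hoxa13, Hoxb4, Hoxb7 and Hoxb9, Hoxc4, Hoxc5, Hoxc6, Hoxc9 and Hoxc13, and Hoxd10. The number of Hox genes with counts in a library was 34 or 35 in JNJ 24 h, against 22 to 28 in DMSO 24 h. The median log2 change of the 26 was 2.08, against 0.01 over all genes. With library totals in place of TMM scaling the median of all genes moved by 0.156, and calls over all genes split into 3170 higher and 1470 lower in place of 2613 and 2178. The same 13 Hox genes were called under each of the 3 other scalings. At 2 h, upper-quartile scaling split the calls over all genes into 1089 higher and 909 lower in place of 1318 and 664, and 0 Hox genes were called.

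The test could be made for many of these genes only because they were high in JNJ 24 h. Of the 26 genes, 11 passed the filter on low counts only through the JNJ 24 h libraries, which favours a difference from the start. Of these, 9 were called, where 63.4% of all genes that passed in this way were higher. The other 15 passed without these libraries. Among them Hoxa7, Hoxb7, Hoxb9 and Hoxc4 were called, 4 of 15, where 16% of such genes were higher. Among the 19 tested Hox genes with a DMSO 24 h mean under 1 CPM, 12 were called higher, against 39.7% of all genes at that level. Among the 7 with at least 1 CPM it was 1, Hoxb9, against 14.1%.

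**Figure D3:**
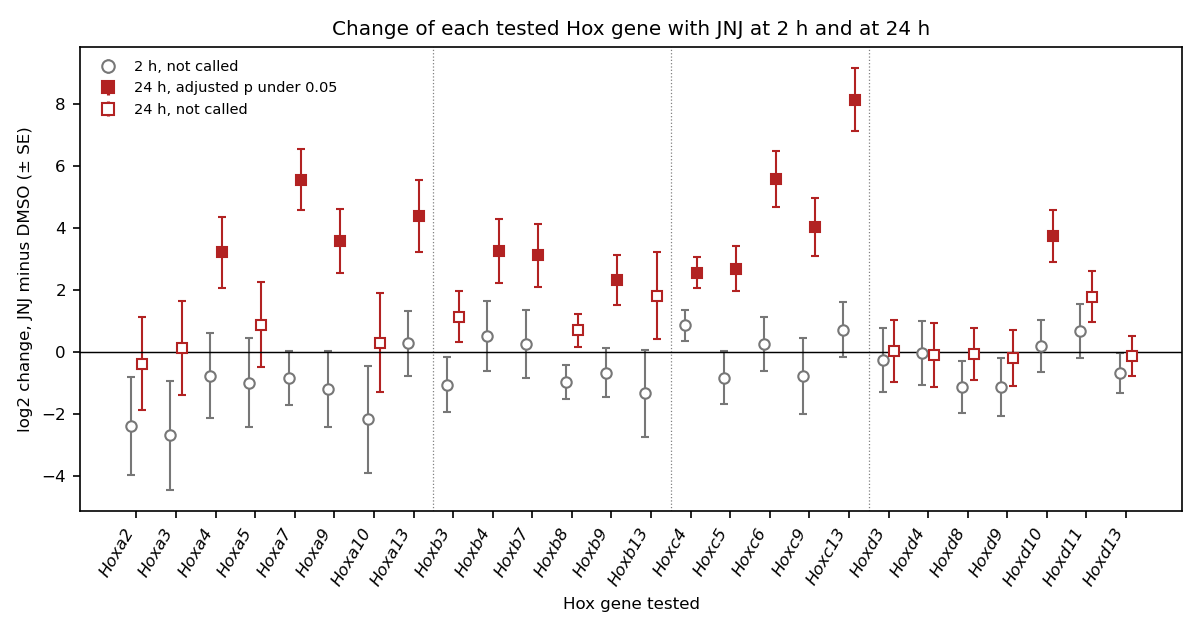
Log2 change with JNJ against DMSO at 2 h (grey circles) and 24 h (red squares) for the 26 Hox genes tested, with the SE as bars. Filled squares mark the 13 genes called at 24 h, which reach 8.15 for Hoxc13, while all 2 h values lie between -2.69 and 0.86.

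The summed level of the Hoxc cluster rose in all 3 treated libraries. Its summed level was 0.835, 0.311 and 0.875 CPM in DMSO 24 h and 11.6, 9.45 and 8.55 CPM in JNJ 24 h. All 3 treated libraries were above every DMSO library, and all 5 tested Hoxc genes were called. Of these, Hoxc5, Hoxc6, Hoxc9 and Hoxc13 passed the filter only through the JNJ 24 h libraries, a class of which 63.4% of all genes were higher. Hoxc4 passed without them. In the other 6 groups the Hoxc sum never passed 1.97 CPM. Unlike the other clusters, Hoxc was nearly level among the DMSO 2 h libraries, at 0.741, 0.734 and 0.662 CPM.

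Hoxc13, the last gene of the cluster and known for its part in hair and nail formation, rose from near silence. It had 140, 120 and 87 reads in JNJ 24 h (3.63, 3.84 and 3.43 CPM) and 0, 1 and 0 reads in DMSO 24 h. With 347 reads against 1, the ratio of CPM was 397, with an exact 95% interval of 70.7 to 15710 that covers counting error only. The fitted log2 change was 8.15 (SE 1.02, edgeR adjusted p = 0.000167). In no other group did a library have more than 6 reads.

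Hoxc6, a marker of thoracic and brachial spinal cord, had 77, 40 and 32 reads in JNJ 24 h (2.00, 1.28 and 1.26 CPM) and 2, 0 and 1 in DMSO 24 h. Its ratio was 56.8 with an exact interval of 19.1 to 278 (log2 change 5.59, SE 0.90, edgeR adjusted p = 0.000664). Hoxc9, which sets the thoracic identity of motor neurons, had 12, 24 and 11 reads against 0, 2 and 1 (ratio 17.9, interval 5.77 to 89.96, log2 change 4.03, SE 0.94, edgeR adjusted p = 0.00583). Both genes were higher in each treated library than in any DMSO 24 h library.

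The front genes of the cluster started from more reads and rose less. Hoxc4, a gene used from the posterior hindbrain downwards, had 3.99, 2.15 and 2.52 CPM in JNJ 24 h and 0.72, 0.207 and 0.536 CPM in DMSO 24 h. Its log2 change was 2.56 (SE 0.50, edgeR adjusted p = 0.00216). Hoxc5 had 0.674, 0.961 and 0.394 CPM against 0.0288, 0.0259 and 0.254 (log2 change 2.69, SE 0.73, edgeR adjusted p = 0.0131). The groups did not overlap for either gene. In GENCODE M21, Hoxc5 shares 166 exon bases with Hoxc10, so reads there could belong to either.

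The 4 Hoxc genes outside the test followed in part. Hoxc10 had 30, 10 and 6 reads in JNJ 24 h and 0, 0 and 1 in DMSO 24 h, a ratio of 52.6 (exact interval 8.98 to 2122). Hoxc8 had 8, 3 and 7 against 1, 0 and 0, a ratio of 20.6 (interval 3.25 to 857). With no filter on low counts both were called (edgeR adjusted p = 0.00388 and 0.0249). Hoxc11 had 1 read in JNJ 24 h, and Hoxc12 had none.

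**Figure D4:**
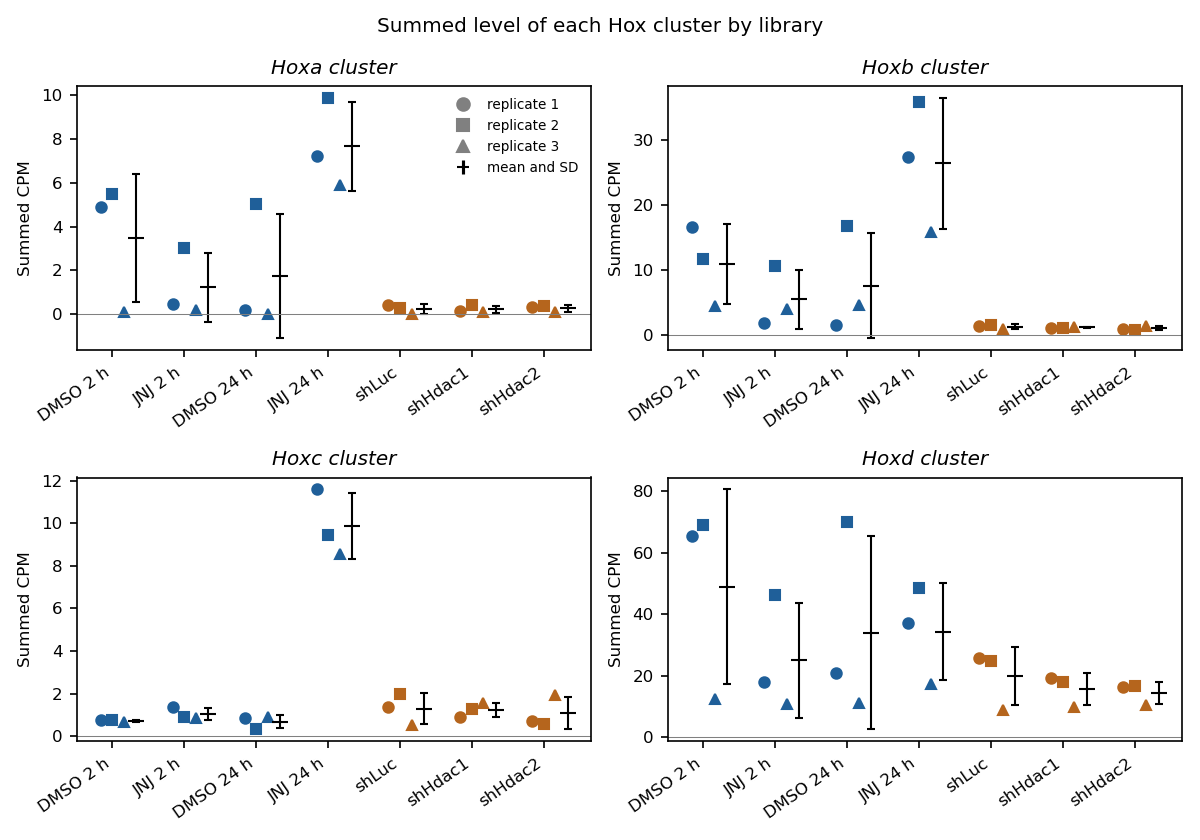
Summed CPM of the genes of each Hox cluster in every library (1 symbol per replicate number), with the mean and SD of each group beside them. The Hoxc sums of the 3 JNJ 24 h libraries, 8.55 to 11.6 CPM, stand above those of all other libraries, while the Hoxd sums overlap between groups.

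In the Hoxa cluster 4 of the 8 tested genes rose, against 18.1% of all tested genes. Hoxa4, Hoxa9 and Hoxa13 passed the filter only through the JNJ 24 h libraries, a class of which 63.4% of all genes were higher. Hoxa7, a gene of the neck and upper trunk, had 136, 98 and 76 reads in JNJ 24 h (3.52, 3.14 and 3.00 CPM) against 3, 3 and 1 in DMSO 24 h (0.0864, 0.0776 and 0.0282 CPM). Its log2 change was 5.57 (SE 0.99, edgeR adjusted p = 0.00121), and the treated libraries were close to each other. It shares 586 exon bases with Hoxaas3, annotated on the opposite strand, and the strand that was counted is not given in the sources used here. Mira, a long noncoding RNA gene that lies beside Hoxa7, rose too, with 147, 113 and 71 reads against 5, 22 and 0 (log2 change 3.80, SE 1.11, edgeR adjusted p = 0.019).

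Hoxa13, the last gene of its cluster, which shapes the digits and the urogenital tract, had 0.855, 1.73 and 1.06 CPM in JNJ 24 h and 0, 0.155 and 0 in DMSO 24 h (log2 change 4.41, SE 1.17, edgeR adjusted p = 0.0117). This is the gene whose promoter is the densest in CG of those printed above. Hoxa9, known from blood stem cells and leukaemia, had 0.803, 0.256 and 0.355 CPM against 0, 0.104 and 0 (log2 change 3.60, SE 1.04, edgeR adjusted p = 0.0182). Hoxa4 had 0.803, 0.352 and 0.434 CPM against 0, 0.155 and 0 (log2 change 3.23, SE 1.15, edgeR adjusted p = 0.0453). In each of the 3 genes DMSO 24 h replicate 2 held all reads of the DMSO group.

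Hoxa2, Hoxa3, Hoxa5 and Hoxa10 were not called and kept to the split between libraries. Hoxa10, a gene of the lumbar region and uterus, had 0.259, 1.82 and 0.276 CPM in JNJ 24 h and 0.0576, 1.84 and 0 in DMSO 24 h (log2 change 0.30, SE 1.61, edgeR adjusted p = 0.906). In both groups replicate 2 was the highest library. Hoxa2 had a log2 change of -0.37 (SE 1.49, edgeR adjusted p = 0.876). Of the untested genes, Hoxa11 had 13, 2 and 2 reads in JNJ 24 h and 0 in DMSO 24 h, at least 6.48-fold higher against a floor of 3 reads over the group. Hoxa6 had 6 reads in all against 1.

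In the Hoxb cluster 3 of the 6 tested genes rose, against 18.1% of all tested genes. Hoxb4 passed the filter only through the JNJ 24 h libraries, a class of which 63.4% of all genes were higher. Hoxb9, which patterns the rib cage and mammary gland, had 7.44, 8.84 and 4.30 CPM in JNJ 24 h and 0.317, 3.36 and 0.367 CPM in DMSO 24 h (log2 change 2.34, SE 0.81, edgeR adjusted p = 0.0412). Hoxb7 had 2.36, 1.28 and 1.54 CPM against 0.115, 0.0518 and 0.423 (log2 change 3.12, SE 1.02, edgeR adjusted p = 0.0324). Hoxb4, which can expand blood stem cells, had 2.00, 0.288 and 0.985 CPM against 0.0864, 0.0259 and 0.226 (log2 change 3.25, SE 1.03, edgeR adjusted p = 0.0282). The groups did not overlap for any of the 3 genes, though Hoxb4 replicate 2 lay just above the highest DMSO library.

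Hoxb13 reached the second highest level per kilobase of all Hox genes in JNJ 24 h, 5.71 ± 3.39 CPM per kb, after Hoxd8 with 7.36 ± 4.04. It had 11.02, 20.7 and 6.03 CPM against 0.173, 10.02 and 0.48 CPM in DMSO 24 h and was not called (log2 change 1.82, SE 1.41, edgeR adjusted p = 0.349). With the replicate number as a block it was called (log2 change 2.96, edgeR adjusted p = 0.029), and without DMSO 24 h replicate 2 as well (5.22, edgeR adjusted p = 0.0324). The block was fitted over all 12 drug libraries, those of 2 h included. Hoxb8 (log2 change 0.70, edgeR adjusted p = 0.337) and Hoxb3 (1.14, edgeR adjusted p = 0.317) were not called. Of the untested genes, Hoxb6 had 19, 4 and 3 reads against 1, 0 and 2, Hoxb5 had 8 in all against 4, and Hoxb2 had 2 against 3.

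In the Hoxd cluster 1 of the 7 tested genes rose, or 14.3% against 18.1% of all tested genes. It passed the filter only through the JNJ 24 h libraries, a class of which 63.4% of all genes were higher. The genes with most reads stayed within their range. Hoxd10, which sets lumbar motor neuron identity and helps to pattern the limb, had 3.78, 0.288 and 1.62 CPM in JNJ 24 h and 0.115, 0.104 and 0.198 CPM in DMSO 24 h (log2 change 3.75, SE 0.85, edgeR adjusted p = 0.00511). Its treated libraries spread widely, with replicate 2 close to the DMSO libraries, though all 3 lay above them. Hoxd11, beside it, had 0.674, 0.224 and 0.552 CPM against 0.0288, 0.155 and 0.226 (log2 change 1.79, SE 0.81, edgeR adjusted p = 0.107), and was called with the replicate block (1.99, edgeR adjusted p = 0.0482). Hoxd10 shares 104 exon bases and Hoxd11 shares 455 with a gene model that spans both.

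Hoxd8 had 21.0, 30.9 and 8.75 CPM in JNJ 24 h against 13.6, 43.2 and 5.84 CPM in DMSO 24 h (log2 change -0.05, SE 0.84, edgeR adjusted p = 0.972). Hoxd9 had 5.16, 8.55 and 1.97 CPM against 3.48, 12.8 and 1.61 (log2 change -0.19, SE 0.91, edgeR adjusted p = 0.895). In both genes the 2 groups overlapped and replicate 2 was the highest. The log2 changes of Hoxd3, Hoxd4 and Hoxd13 lay between -0.12 and 0.04, with SEs of 0.65 to 1.03. Hoxd3 shares 2613 and Hoxd4 shares 1542 exon bases with each other or with another gene model, so their reads may be split between them. Hoxd12 had 5, 2 and 2 reads against 0, at least 3.43-fold higher against the floor of 3 reads, and Hoxd1 had 1 against 0.

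By position, none of the 4 tested genes at positions 1 to 3 were called at 24 h, 7 of 11 at positions 4 to 8, and 6 of 11 at positions 9 to 13, against 18.1% of all tested genes higher. The medians of their log2 changes were 0.09, 2.69 and 2.34. No test of this difference was made. Of the genes called, 4 of the 7 and 5 of the 6 passed the filter only through the JNJ 24 h libraries, and the 4 front genes, Hoxa2, Hoxa3, Hoxb3 and Hoxd3, were each highest in replicate 2 in both 24 h groups.

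How firmly the 13 calls stood differed. Hoxa7, Hoxa13, Hoxc4, Hoxc6, Hoxc9, Hoxc13 and Hoxd10, 7 genes, were called in all 14 other settings that kept the filter over all libraries or dropped it, each left-out library included. Hoxa4, Hoxa9, Hoxb4, Hoxb7, Hoxb9 and Hoxc5 lost their calls without at least 3 of the 6 libraries of these groups, taken 1 at a time. The count of Hox genes called was 8 without DMSO 24 h replicate 1 and 8 without JNJ 24 h replicate 1. Without replicate 2 of both groups it was 10 of 26, a setting added after the data were seen. Of the 7 genes called throughout, Hoxa13, Hoxc6, Hoxc9, Hoxc13 and Hoxd10 passed the filter only through the JNJ 24 h libraries. They could not be tested with the filter applied without those libraries, so the 14 settings do not address that selection. Hoxa7 and Hoxc4 passed without them.

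The change at 24 h exceeded that at 2 h for 3 Hox genes. The interaction test called Hoxc13, Hoxa7 and Hoxc6 higher, 3 of 26, where 2.51% of all tested genes were higher and 4.24% were called either way. Hoxc13 and Hoxc6 passed the filter only through the JNJ 24 h libraries and so had to be high there. Of the 15 genes that passed without them, 1 was called, Hoxa7. The differences of the log2 changes were 7.42 for Hoxc13 (SE 1.42, edgeR adjusted p = 0.0175), 6.42 for Hoxa7 (SE 1.30, edgeR adjusted p = 0.0201) and 5.33 for Hoxc6 (SE 1.27, edgeR adjusted p = 0.0364). In JNJ 2 h their levels were still low: Hoxc13 had 0.168, 0.219 and 0 CPM, Hoxa7 had 0.112, 0.512 and 0.0289, and Hoxc6 had 0.14, 0.0731 and 0.0866. Each of these values lay within or close to the range of DMSO 2 h, where Hoxa7 reached 0.761 CPM. For the other 23 genes the difference between times did not pass the test. The count of 3 fell to 0 without DMSO 2 h replicate 2, to 1 without DMSO 24 h replicate 1 and to 1 without JNJ 24 h replicate 3.

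No Hox gene passed the test for time in DMSO alone. Between DMSO 24 h and DMSO 2 h the test called 0 of 26 Hox genes, where 0% of all genes were called. Hoxa7 alone had an unadjusted p under 0.05 (log2 change -2.49, SE 0.97, edgeR adjusted p = 0.507), and DESeq2 called 0 Hox genes. It had 0.313, 0.761 and 0.0576 CPM in DMSO 2 h against the DMSO 24 h values above.

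In the knockdown of either HDAC none of the Hox genes that could be tested passed the test. These were Hoxb8, Hoxc4, Hoxd4, Hoxd8, Hoxd9 and Hoxd13, 6 of the 39. In shHdac1 against shLuc 0 of 6 were called, where 0.749% of all 13612 tested genes were, 0.154% higher and 0.595% lower. In shHdac2 against shLuc it was 0 of 6 against 1.68%, with 0.654% higher and 1.03% lower. In shHdac1 against shHdac2 it was 0 of 6 against 2.06%, with 0.889% higher and 1.17% lower. None of the 6 had an unadjusted p under 0.05 in any of these comparisons, and DESeq2 called 0. The 3 comparisons share groups.

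Among the hairpin libraries Hoxd8 had 17.7, 16.2 and 6.00 CPM in shLuc, 14.2, 12.4 and 4.95 CPM in shHdac1 and 10.8, 11.9 and 5.17 CPM in shHdac2. The groups overlapped, and the log2 change was -0.34 in shHdac1 (SE 0.50, edgeR adjusted p = 0.873) and -0.51 in shHdac2 (SE 0.50, edgeR adjusted p = 0.687). It was lower than in the same-numbered shLuc library in 3 of 3 libraries of each knockdown, and was not called with the replicate block either (edgeR adjusted p = 0.237 and 0.0889). Hoxd4, a gene of the posterior hindbrain and neck, had 2.15, 1.93 and 0.389 CPM in shLuc, 0.845, 0.883 and 0.234 CPM in shHdac1 and 0.871, 0.432 and 0.243 CPM in shHdac2. Its log2 change was -1.19 in shHdac1 (SE 0.72, edgeR adjusted p = 0.584) and -1.50 in shHdac2 (SE 0.73, edgeR adjusted p = 0.358). It too was lower in 3 of 3 same-numbered pairs in each knockdown, with adjusted p = 0.121 and 0.054 by edgeR with the block. Hoxb8, Hoxc4 and Hoxd9 were lower in 2 of 3 pairs in each knockdown. Hoxd13 was lower in 2 of 3 in shHdac1 and 1 of 3 in shHdac2. Such pairs were not counted over all genes, and both knockdowns were set against the same shLuc libraries. Hoxd13 had 0.688, 0.757 and 2.91 CPM in shHdac1 and 0.933, 0.863 and 3.07 CPM in shHdac2, with replicate 3 the highest in both, against 0.884, 1.12 and 1.48 CPM in shLuc.

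The genes that rose most with JNJ at 24 h stayed near silent in the hairpin groups. Hoxc13 had 2, 1 and 0 reads in shLuc, 1, 3 and 0 in shHdac1 and 4, 4 and 4 in shHdac2. Hoxa7 had at most 4 reads in a hairpin library, Hoxc6 at most 5 and Hoxa13 at most 1. The summed Hoxc level was 1.29 ± 0.736 CPM in shLuc, 1.23 ± 0.333 in shHdac1 and 1.08 ± 0.751 in shHdac2. The labels do not give the time between virus and RNA.

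Genes known to work with or on Hox genes were described from lists. Of the 9 cofactors with which Hox proteins bind DNA, Pbx4 and Pknox2 rose, Pknox1 and Pbx3 fell and 5 were not called, shares near the 18.1% higher and 15.1% lower of all genes. The levels of Pbx4 were 8.63 ± 0.893 CPM against 3.49 ± 0.311 (log2 change 1.31, SE 0.34, edgeR adjusted p = 0.0103) and those of Pknox1 were 28.8 ± 1.06 against 57.8 ± 7.19 (edgeR adjusted p = 0.000637). Meis1, a cofactor gene that was not called, had a log2 change of 0.04 (SE 0.24, edgeR adjusted p = 0.919). At 2 h 0 of the 9 were called, and 0 of 8 tested in either knockdown against shLuc.

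Of 28 genes for histone methyltransferases, demethylases and their partners that are known to keep Hox genes off or on, 0 rose and 9 fell at 24 h, where 15.1% of all genes were lower. On the polycomb side Ezh2, Eed, Suz12, Bmi1, Rnf2 and Asxl1 fell, and on the trithorax side Ash2l, Ash1l and Psip1. Ezh2, the main methyltransferase of the repressive mark, fell from 282 ± 48.5 to 148 ± 23.9 CPM (log2 change -0.92, SE 0.23, edgeR adjusted p = 0.00859). Bmi1, a polycomb subunit, fell from 226 ± 16.3 to 89.7 ± 16.3 CPM (-1.33, SE 0.24, edgeR adjusted p = 0.00123). At 2 h 4 of the 28 rose, Men1, Cbx7, Phc3 and Kdm6b, and 0 fell, against 9.11% and 4.59% of all genes. Kdm6b, which removes the repressive mark, rose from 56.7 ± 7.99 to 98.5 ± 20.6 CPM at 2 h (log2 change 0.80, SE 0.19, edgeR adjusted p = 0.0154) and had 73.3 against 67.2 CPM at 24 h (0.12, edgeR adjusted p = 0.652). Whether these changes bear on the Hox genes was not tested.

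Retinoic acid switches on front Hox genes in the embryo. Of 15 tested genes of its pathway 3 rose at 24 h, the receptor genes Rara and Rarg and the degrading enzyme gene Cyp26b1, near the 18.1% of all genes. The synthesis gene Aldh1a1 and Stra6, which takes up vitamin A, fell, 2 of 15 against 15.1%. At 2 h Rara, Rarg, Dhrs3 and Rdh10 rose, 4 of 15 against 9.11%, and 0 fell. The receptor gene Rarb, often used as a readout of retinoic acid, was not called at 24 h (1.85 ± 0.517 against 2.72 ± 0.858 CPM, log2 change -0.56, edgeR adjusted p = 0.403).

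Of 13 tested genes that set hindbrain segments or start Hox expression, Fgf8, Wnt3a, Gdf11, Pax2 and Gbx2 rose at 24 h and 0 fell, against 18.1% of all genes higher. Gbx2, which marks the front of the hindbrain, rose from 0.292 ± 0.196 to 1.92 ± 1.00 CPM (log2 change 2.71, SE 0.71, edgeR adjusted p = 0.0112) and had risen at 2 h, to 1.90 ± 1.18 from 0.272 ± 0.0157 CPM (2.79, SE 0.72, edgeR adjusted p = 0.022). Fgf8 and Gdf11 also rose at both times. In the knockdowns Gdf11, known to shift trunk identity towards the tail, fell in shHdac1 (log2 change -0.73, SE 0.13, edgeR adjusted p = 0.0476).

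Of 8 tested genes that lie beside the Hox clusters on their chromosomes, 0 rose and 2 fell at 24 h, against 18.1% higher and 15.1% lower of all genes, so few calls would be seen among 8 genes in any case. Cbx5, beside Hoxc and coding for a heterochromatin protein, fell from 1212 ± 206 to 377 ± 77.9 CPM (log2 change -1.68, SE 0.28, edgeR adjusted p = 0.000784). Snx10, beyond the end of Hoxa, fell from 69.7 ± 10.7 to 42.4 ± 5.69 CPM (-0.72, SE 0.20, edgeR adjusted p = 0.0147). Of the noncoding genes of the clusters 2 could be tested, Mira, which rose as given above, and Hoxd3os1, which was not called (0.35, edgeR adjusted p = 0.76).

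Markers of other cell types moved at 24 h in both directions. Of the 12 SHH and granule progenitor markers 5 fell, Barhl1, Gli1, Ccnd1, Atoh1 and Pax6, against 15.1% of all tested genes lower. The 12 summed to 4059 to 4208 CPM in DMSO 24 h and 2135 to 2853 CPM in JNJ 24 h. Of the 8 fibroblast or mesenchyme markers, cells that use many Hox genes, 6 were tested. Col1a1 rose (17.4 ± 8.32 against 0.867 ± 0.594 CPM) and Col3a1 fell (0.759 ± 0.472 against 3.23 ± 0.161). Each was 1 of 6, against 18.1% higher and 15.1% lower of all genes. The 8 summed to 69.2 to 102 CPM in DMSO 24 h and 92.2 to 146 CPM in JNJ 24 h. The endothelial receptor gene Kdr rose, 1 of 4 tested against 18.1% of all genes. The 5 endothelial markers summed to 1.02 to 10.9 CPM without JNJ and 3.84 to 5.51 CPM with it. The 6 markers of posterior hindbrain and spinal cord, 2 of which are Hox genes, summed to 5.96 to 13.2 and 9.98 to 11.7 CPM. The 4 astroglial markers summed to 14.2 to 40.3 and 4.65 to 7.91 CPM. Gfap and S100b, the 2 tested, were called lower, against 15.1% of all genes. The 4 oligodendroglial markers summed to 4.23 to 5.64 and 2.37 to 4.17 CPM, and the 6 of blood and microglia to 1.35 to 1.79 and 1.38 to 2.51 CPM. The part of such cells in the Hox values was not tested.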

How the data were processed

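Single-end RNA-seq libraries were made from total RNA of SMB21 cells with a stranded mRNA kit, per the labels' protocols. The authors deposited 1 table of read counts per gene for all 21 libraries, with no normalization. STAR 2.5.1b and the mouse genome build mm9 are named in the submitters' processing notes. For the counting, the annotation and strand setting were not given in the sources used. Samples were grouped by their titles. Counts were scaled by TMM and tested with edgeR 4.0.16 (R 4.3.3) in its quasi-likelihood test with Benjamini-Hochberg adjustment over all tested genes, at an adjusted p under 0.05, in 1 fit for the 12 drug libraries and 1 for the 9 hairpin libraries. Genes were tested with at least 0.2775 CPM (drug) or 0.374 CPM (hairpin) in 3 libraries and a total of at least 15 reads, which left 14467 and 13612 genes. The tests covered 26 Hox genes in the drug experiment and 6 in the hairpin experiment. Hox genes were named by the rule that all rows of the 4 clusters are members. The members and gene lists were chosen with earlier results of these data known. Library totals were 23094799 to 39341784 reads. Ratios of groups with 1 to 3 reads carry exact binomial intervals, and these and the floors of 3 reads cover counting error only. Same-numbered libraries deviated together in the 24 h groups (correlations of their deviations from the group means 0.566, 0.656 and 0.609) and in all hairpin pairs (0.245 to 0.798), so the numbers were taken to pair them. At 2 h the DMSO and JNJ libraries did so for replicates 2 and 3 (0.651 and 0.585) but not for replicate 1 (-0.00469). JNJ 2 h replicate 1 did deviate together with DMSO 24 h replicate 1 (0.506). The main tests fitted the group only and did not use the pairing, which entered the replicate block and the counts of same-numbered libraries. Alternatives were RLE, upper-quartile and total scaling, no filter, DESeq2 1.42.0, a replicate block, 1 fit of all libraries and leaving out each library, and 2 chosen after seeing the data. Promoters came from a RefSeq table of GRCm38.p6, exon lengths and overlaps from GENCODE M21, and none of their coordinates were joined to the counts. The values of a few genes are not reported here. The fit was tested on simulated data with a spread below the common spread of the drug libraries. For JNJ 24 h against DMSO 24 h it called 63.8% of the tested 2-fold rises and 58.3% of the 2-fold falls. For 4-fold changes the shares were 100% and 97.9%. This does not measure what could be detected for genes that spread more between libraries, as many Hox genes did.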

Additional observations from a re-analysis of the deposited data

Results flagged for a closer look

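For 3 Hox genes the change with JNJ at 24 h differed from that at 2 h by the interaction test. The difference of the log2 changes was 7.42 for Hoxc13, 6.42 for Hoxa7 and 5.33 for Hoxc6 (edgeR adjusted p = 0.0175, 0.0201 and 0.0364). All 3 genes had more reads in each JNJ 24 h library than in any other drug library. The call of Hoxc13 was lost without DMSO 2 h replicate 2. That of Hoxa7 was lost without DMSO 2 h replicate 2, DMSO 24 h replicate 1 or 3, or JNJ 24 h replicate 3. The call of Hoxc6 was lost in 9 of the 12 fits that left out 1 library.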

How the results depend on the processing

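At 24 h of JNJ the count of 13 Hox genes was 13 under each other scaling, 16 without the filter and 12 with DESeq2. It was 12 of 25 in 1 fit of all libraries and 15 with the replicate block, fitted over all 12 drug libraries. Over all genes the count of 4791 was 4787 without the filter, 5329 with DESeq2, 5961 in 1 fit and 6633 with the block. The Hox count was 8 to 12 when 1 library was left out. With the filter applied without the JNJ 24 h libraries, added after the data were seen, it was 4 of 15, since fewer genes were tested. At 2 h 0 genes were called in all settings but the replicate block, with 3 (Hoxa2, Hoxd8 and Hoxd9, lower). The block gave 8 for the interaction in place of 3. At 2 h the numbers paired replicates 2 and 3 of DMSO and JNJ but not replicate 1, and the cause was not tested. The interaction count was 0 to 4 when 1 library was left out. In the hairpin comparisons and between the DMSO times 0 Hox genes were called in every setting, leaving out 1 library included (0 to 0), and in the paired comparisons the replicate block changed no other call. Over single Hox genes and settings 1701 values kept their status, 42 lost a call, 15 gained one and 0 reversed. The 1701 include values that were called in neither setting, so they do not measure how often a call was kept.

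Counts over all genes moved too. Between the DMSO times they were 0, against 16 with DESeq2, 108 with the block, 2 without the filter and 0 to 44 when 1 library was left out (44 without DMSO 2 h replicate 1). At 2 h they were 1982, against 3455 with the block and 3185 in 1 fit of all libraries, and 1043 to 3365 when 1 library was left out. At 24 h they were 4791, against 6633 with the block and 2709 without replicate 2 of both groups. With 1 library left out they were 3393 to 4021 at 24 h. For the interaction they were 614, against 1478 with DESeq2, 2132 with the block, 1722 in 1 fit and 145 to 1156 when 1 library was left out. For shHdac1 against shLuc, shHdac2 against shLuc and shHdac1 against shHdac2 they were 102, 229 and 280. They were 580, 892 and 857 with DESeq2, 523, 801 and 886 with the block, and 8, 27 and 76 in 1 fit. When 1 library was left out they were 2 to 1512, 12 to 1212 and 30 to 272. The cause of these moves was not tested.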
